A study of Mus musculus with 16 samples.

Results

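The genes described here are chromatin and histone-modifying regulators: histone methyltransferases and demethylases, acetyltransferases and deacetylases, bromodomain and PHD finger proteins, nucleosome remodelers, DNA methylation enzymes and nuclear receptor coregulators. They were chosen by a pattern on gene symbols (among others Kdm, Jmjd, Kmt, Setd, Nsd, Ehmt, Ash1l, Kat with a number, Ep300, Crebbp, Hdac, Sirt, Brd, Phf, Smarc, Chd, Ep400, Arid, Dnmt, Tet, Ncor, Ncoa and Asxl). The pattern found 88 of the 4943 gene identifiers in the deposited peak table, or 87 symbols, since Setd1a stood under 2 identifiers. Their transcripts carried 217 of the 7069 peaks. Some matching names belong to proteins with other known roles, such as Setd3, which methylates actin.

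Peritoneal macrophages (PMs) came from WT mice and from mice lacking the adaptor ADAP (Adap-/-), washed out 3 days after an injection of 3% thioglycolate. The methods give a C57BL/6 background and sex-matched littermates aged 6 to 8 weeks. Mock cells were untreated, and the other cells received LPS, the bacterial ligand of TLR4, at 1 µg/ml for 6 h. MeRIP-seq sequenced the fragments bound by an m6A antibody (IP) beside the unselected fragments (input). The 4 groups were WT mock, WT LPS, Adap-/- mock and Adap-/- LPS, each with 2 replicates and each replicate with an input and an IP library, 16 libraries in all. Replicates are written below as WT mock 1, Adap-/- LPS 2 and so on. The labels do not say that replicates were separate animals, so the errors describe the spread between these samples only.

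The targeted gene, Fyb1, served as the check of genotype. Its normalized input level was 244 and 257 CPM in WT mock, 349 and 377 in WT LPS, 46.7 and 36.9 in Adap-/- mock and 41.5 and 35.7 in Adap-/- LPS. The WT and Adap-/- values did not overlap in either condition. By edgeR the log2 fold change in Adap-/- was -2.58 (SE 0.13, adjusted p = 8.51e-09) in mock and -3.22 (SE 0.13, adjusted p = 5.63e-10) after LPS. Peak counts summed to between 5728590 and 19030373 per IP library (median 10378793) and to between 2121313 and 4325961 per input library (median 2883046.5). The regulators received 58027 to 197930 of the IP counts and 20365 to 25928 of the input counts of a library. Input levels are given in CPM, the count of a gene over all its peaks scaled to its library, so reads outside peaks are not counted, and fewer cells with a transcript cannot be told apart from less of it per cell. The IP-to-input ratio is centred on all peaks, so a change shared by every peak cannot be seen.

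Macrophages answer LPS through NF-κB, AP-1 and interferon-driven transcription factors, and chromatin enzymes open or close the target genes. Among the best known are the demethylase Kdm6b, which removes H3K27 methylation and is induced by LPS, Tet2, which limits Il6 transcription, Setdb2, an interferon-induced regulator of H3K9 methylation, and the BET protein Brd2, which binds acetylated histones. Arid5a stabilizes Il6 mRNA in activated macrophages. ADAP is a cytosolic adaptor, best known from integrin and antigen receptor signalling.

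Of the 16 libraries, 2 mock IP libraries stood apart. Peaks of other genes were chosen for each genotype by the input of the other genotype, so that no library entered its own choice. Across 161 peaks that LPS raised by more than 5 log2 units in Adap-/- input, WT mock IP 1 had 63.7% of the level in the WT LPS IP libraries, and WT mock IP 2 had 3.91%. Across 172 peaks raised by as much in WT input, Adap-/- mock IP 2 had 64.2% of the level in the Adap-/- LPS IP libraries, and Adap-/- mock IP 1 had 7.36%. In the same way the mock input libraries had 0.863% and 1.24% of the LPS input level in WT, and 1.34% and 1.46% in Adap-/-. On peaks that LPS lowered by more than 4 log2 units in the input of the other genotype, the WT LPS IP libraries kept 16.8% and 9.33% of the mock level and the Adap-/- LPS IP libraries 4.87% and 6.07%, with 4.05% and 4.03% in WT LPS input and 5.83% and 5.58% in Adap-/- LPS input. On these lowered peaks WT mock IP 1 had 90.4% and WT mock IP 2 109.6% of the mean of the WT mock IP libraries. Adap-/- mock IP 2 had 88.3% and Adap-/- mock IP 1 111.7% of the mean of the Adap-/- mock IP libraries. Input results use all 8 input libraries. Counts of regulator peaks are given with WT mock IP 1 and Adap-/- mock IP 2 and again without them in edgeR with the scaling used throughout. Of 32 results for single peaks, 22 kept the call without these libraries, and the value is given beside each of the 10 that lost it. The cause was not tested.

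**Figure D1:**
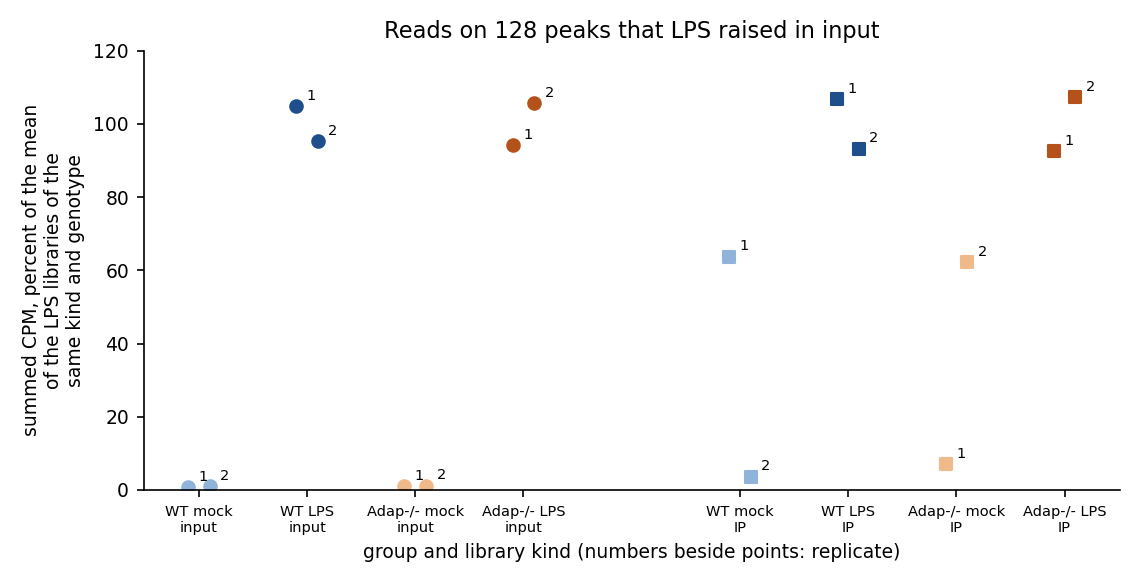
LPS-raised peaks in each library. The y axis gives the summed level of 128 peaks as a percentage of the LPS libraries of the same kind and genotype, and WT mock IP 1 and Adap-/- mock IP 2 lie far above the other mock libraries. These peaks are 1 set for both genotypes, raised by LPS in input, and differ from the sets of 161 and 172 peaks above. The input points are therefore not independent of the choice.

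Regulator transcripts together made up 5942 and 5502 CPM in WT mock, 7453 and 7850.1 in WT LPS, 5915 and 6039 in Adap-/- mock and 7336 and 7576 in Adap-/- LPS. Most of the rise of this sum with LPS lay in Phf11a, whose reads are uncertain, and Arid5a, both given below. Levels per kilobase of peak were compared among the 81 regulators without a peak longer than 1000 bases. Dnmt3a, a de novo DNA methyltransferase, was highest in mock, at 3244 CPM per kilobase in WT and 1776 in Adap-/-, and Setdb2 was highest after LPS, at 1156 and 979. The Setdb2 value rests on 1 peak of 50 bases, and Brd2, with 175 bases, was next at 1090 and 911. Phf11a and Arid5a are among the regulators left out of this comparison. The lowest were Phf20l1 in mock, at 14.9 and 15.1, and Kat6b, an acetyltransferase, after LPS, at 13.4 and 15.05. Regulators carried more peaks per gene than other transcripts, with a mean of 2.49 against 1.64 for all genes, and 37.5% of them had at least 3 peaks against 14.5%. Kat6a carried 9 peaks, and Arid1a, Kmt2d and Nsd1 carried 7 each. Of 33 regulators looked up by name for their known macrophage or chromatin roles, 24 were in the table. Kdm5b, Ezh2, Ezh1, Hdac3, Hdac7, Hdac9, Sirt1, Smarca4 and Dnmt1 were not, which says only that the table holds no peak of theirs. Hdac1 and Smarcd3 were in the table with too few input reads to test.

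Reads could not be assigned to a single gene everywhere. The Phf11 and Phf11a transcripts have near-identical copies beside them, and 13 peaks of 10 regulators overlap another annotated gene, so their values are uncertain. These genes were Ncor1 (shared with Ttc19), Jmjd8 (Stub1), Kat5 (Rnaseh2c), Kat14 (Pet117), both Setd1a identifiers (each other and Hsd3b7), and Chd8, Kmt5b, Kdm7a and Arid3b (unnamed genes).

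The first comparison asks which regulators LPS changed in the input RNA of WT and of Adap-/- PMs. In WT, 25 of 86 regulators tested by edgeR rose and 17 fell, at an adjusted p below 0.05, where 30.2% of all 4742 genes rose and 28.9% fell. With an absolute log2 fold change above 1 as well, 11 rose and 7 fell, beside 18.5% and 14.8% of all genes. In Adap-/- PMs 21 rose and 20 fell (28.5% and 26% of all genes), 9 and 6 of them by more than 1 log2 unit (16.7% and 12.3%). The median log2 fold change of regulators was 0.02 in WT and -0.09 in Adap-/-, against -0.03 and -0.03 for all genes. These WT and Adap-/- tests share no library. The same 20 regulators rose in both, 80.0% of the WT list and 95.2% of the Adap-/- list, where the shares over all genes were 85.4% and 90.7%. Another 14 fell in both, 82.4% and 70.0% of the lists (77.2% and 85.7% over all genes), and none moved in opposite directions.

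How many rose and how many fell depended on the scaling. Upper-quartile scaling moved the median of all genes to -0.32 in WT and -0.31 in Adap-/-, and the counts became 18 higher and 36 lower in WT (23.3% and 41.7% of all genes) and 17 and 41 in Adap-/- (21.2% and 39.6%). Relative to all genes the regulators stayed where they were, at 0.05 and -0.05, and the counts by family below are those with TMM scaling. As a scale for the sizes below, 10 known LPS genes, read from 12 identifiers, all rose, with a median log2 fold change of 6.71 in WT and 6.25 in Adap-/-, and Tnf rose by 6.85 in WT. Of 5 genes listed as lowered by LPS, 2 rose and 2 fell in WT, and 1 rose and 2 fell in Adap-/-.

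**Figure D2:**
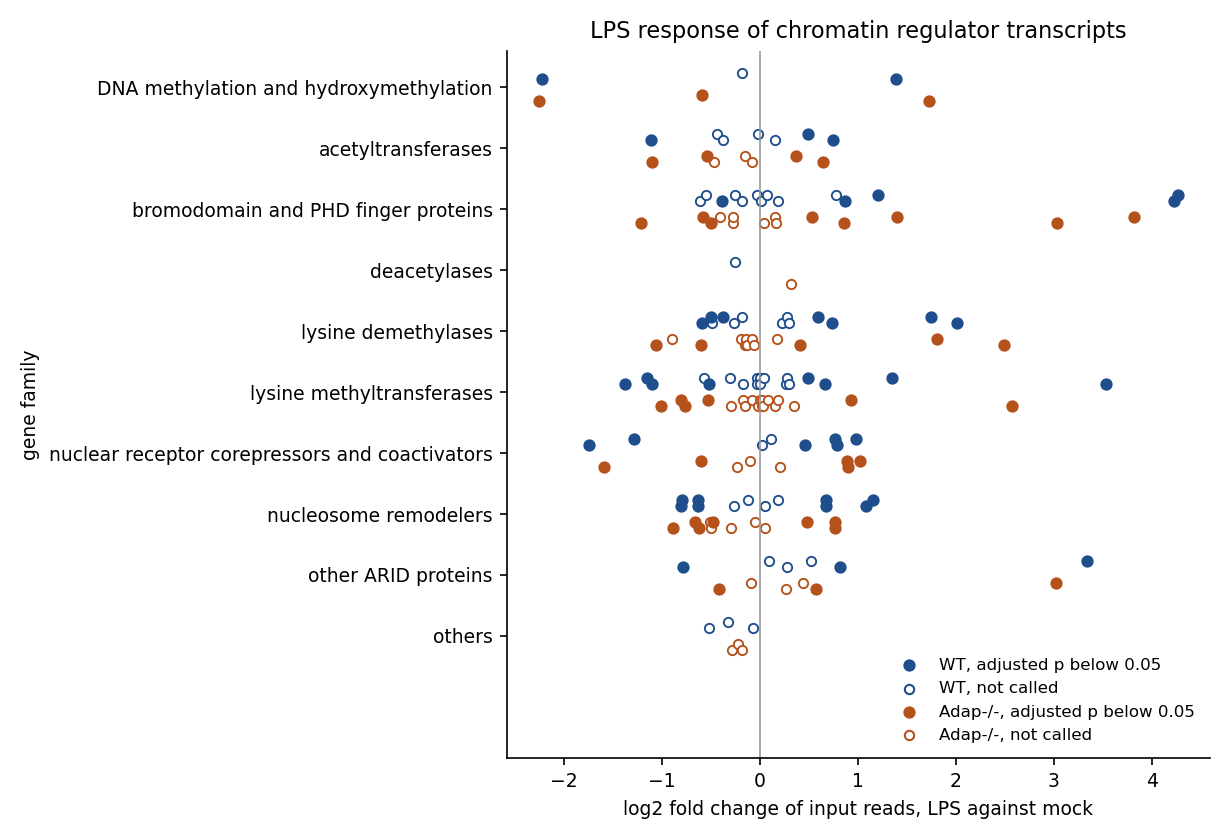
Effect of LPS on input levels by family. Each point is a regulator, the x axis gives its log2 fold change in WT and in Adap-/- PMs, and the largest rises belong to Phf11, Phf11a, Setdb2 and Arid5a.

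Among the DNA methylation enzymes, Tet2 rose and Dnmt3a fell in both genotypes. Tet2, which oxidizes 5-methylcytosine, stood at 24.04 and 17.8 CPM in WT mock, 54.7 and 54.9 in WT LPS, 25.5 and 26.5 in Adap-/- mock and 80.7 and 91.9 in Adap-/- LPS. Mock and LPS libraries did not overlap in either genotype, and the log2 fold change was 1.38 (SE 0.16, adjusted p = 1.86e-06) in WT and 1.73 (SE 0.15, adjusted p = 4.98e-08) in Adap-/-. Dnmt3a went the other way, from 1063 and 1045 CPM in WT mock to 212 and 238 in WT LPS and from 585 and 569 in Adap-/- mock to 125 and 117 in Adap-/- LPS. All 4 groups were separate, with log2 fold changes of -2.23 (SE 0.10, adjusted p = 9.09e-12) and -2.25 (SE 0.10, adjusted p = 1.49e-11). Dnmt3a was the largest fall among the regulators in both genotypes, and its only peak covers the stop codon. Tet3 was called lower in Adap-/- alone (-0.60, against -0.18 in WT). The interaction test did not call a difference of its response (-0.41, adjusted p = 0.478).

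Of 13 genes grouped by the names Kdm and Jmjd as lysine demethylases, 4 rose and 3 fell in WT (30.2% and 28.9% of all genes). In Adap-/- 3 rose and 2 fell (28.5% and 26% of all genes). Kdm4a, which acts on H3K9 and H3K36 methylation, stood at 36.1 and 28.0 CPM in WT mock, 133 and 127 in WT LPS, 44.1 and 48.8 in Adap-/- mock and 225 and 300.4 in Adap-/- LPS. It rose without overlap in both genotypes, by 2.01 (SE 0.16, adjusted p = 1.80e-08) in WT and 2.49 (SE 0.15, adjusted p = 5.33e-10) in Adap-/-. Kdm6b rose from 11.5 and 9.70 CPM to 34.8 and 36.5 in WT and from 15.2 and 16.7 to 55.3 and 57.2 in Adap-/-. The groups were separate, and the rises of 1.74 (SE 0.19, adjusted p = 7.04e-07) and 1.81 (SE 0.17, adjusted p = 1.02e-07) were close in size. Its X-linked relative Kdm6a had no input call in any comparison. The H3K4 demethylase Kdm5c rose by 0.59 and 0.41, and Kdm7a by 0.73 in WT. Jmjd1c fell in both (-0.60 and -0.61), Jmjd8 (-0.50) and Kdm2a (-0.38) in WT, and Kdm4b in Adap-/- (-1.06). Kdm4b was no call in WT (-0.49), and the interaction test did not call a difference of its response (-0.57, adjusted p = 0.555).

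The lysine methyltransferases split, with 4 rising and 4 falling in WT (30.2% and 28.9% of all genes) and 2 and 4 in Adap-/- (28.5% and 26% of all genes). Setdb2 stood at 5.12 and 4.85 CPM in WT mock, 60.3 and 55.3 in WT LPS, 8.40 and 8.01 in Adap-/- mock and 49.4 and 48.5 in Adap-/- LPS. Its rise was 3.53 (SE 0.20, adjusted p = 2.09e-10) in WT and 2.57 (SE 0.18, adjusted p = 4.71e-09) in Adap-/-, with no overlap of mock and LPS libraries. Nsd3, which methylates H3K36, rose from 189 and 155 CPM to 450.2 and 426 in WT and from 196 and 181 to 339 and 381 in Adap-/-. These values were separate as well, at 1.35 (SE 0.11, adjusted p = 2.54e-08) and 0.93 (SE 0.11, adjusted p = 2.34e-06). The enzymes that fell include 2 that place repressive H3K9 methylation, Setdb1 at -1.15 (SE 0.24, adjusted p = 6.34e-04) in WT and -0.76 (SE 0.22, adjusted p = 0.00760) in Adap-/-, and Ehmt1 at -1.10 (SE 0.29, adjusted p = 0.00347) and -0.81 (SE 0.28, adjusted p = 0.0216). Setdb1 went from 23.5 and 22.9 CPM to 8.08 and 13.0 in WT and from 27.0 and 26.0 to 15.2 and 16.04 in Adap-/-, so that its libraries were separate. In Adap-/- the Setdb1 call was lost without Adap-/- LPS 1 (-0.72), and the Ehmt1 call without Adap-/- LPS 1 (-0.78), Adap-/- LPS 2 (-0.84) and Adap-/- mock 1 (-0.64) and by DESeq2 (-0.80). Setd1a, the H3K4 methyltransferase, fell, at -1.38 and -1.01 under the identifier ENSMUSG00000108815, whose peaks all overlap other genes, and had no call under its other identifier (-0.31 and -0.15). Nsd1 fell, at -0.52 and -0.53, and Kmt2c (0.49) and Setd1b (0.67) rose in WT.

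Among the bromodomain and PHD finger proteins, Brd2 rose from 91.1 and 74.4 CPM to 192 and 189 in WT and from 83.5 and 93.0 to 165 and 153 in Adap-/-. The libraries did not overlap, and the rise was 1.20 (SE 0.12, adjusted p = 2.53e-07) and 0.85 (SE 0.12, adjusted p = 1.42e-05). Phf11a, of a PHD finger family next to Setdb2 on chromosome 14, stood at 73.2 and 84.6 CPM in WT mock, 1460.1 and 1572 in WT LPS, 75.1 and 76.0 in Adap-/- mock and 1047 and 1090.0 in Adap-/- LPS. Mock and LPS were far apart, at 4.26 (SE 0.11, adjusted p = 2.90e-14) and 3.82 (SE 0.11, adjusted p = 1.28e-13), and Phf11 rose by 4.23 and 3.03 from at most 10 mock reads. Reads of both are uncertain because of their copies. Phf13, a reader of H3K4 methylation, rose by 0.87 and 0.53. Phf12 fell in WT (-0.38), and Phf14 (-1.21), Phf20 (-0.58) and Phf21a (-0.50) fell in Adap-/-. Phf20l1 rose there by 1.40, a call lost without Adap-/- LPS 2 (1.22) and Adap-/- mock 1 (1.26). None of these single-genotype calls came with an interaction call.

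Of 7 acetyltransferases, 2 rose and 1 fell in WT (30.2% and 28.9% of all genes), and 2 rose and 2 fell in Adap-/- (28.5% and 26% of all genes). Kat6a, of the MOZ complex, rose by 0.74 (SE 0.10, adjusted p = 9.41e-06) in WT and 0.64 (SE 0.10, adjusted p = 4.31e-05) in Adap-/-. Kat5, whose peak overlaps Rnaseh2c, rose by 0.49 and 0.36. Kat14, the ATAC complex subunit, fell from 79.8 and 89.5 CPM to 42.6 and 35.1 in WT and from 74.0 and 83.5 to 55.0 and 52.9 in Adap-/-. The groups were separate, with -1.12 (SE 0.14, adjusted p = 2.79e-06) and -0.55 (SE 0.13, adjusted p = 0.00209). Kat6b was called lower in Adap-/- and not in WT (-1.10), a call lost without Adap-/- LPS 1 (-0.82) and Adap-/- mock 1 (-0.94) and by DESeq2 (-1.09). It had no interaction call. Ep300, Crebbp and Kat2a had no LPS call, though Kat2a values were lower with LPS in both genotypes (-0.44 and -0.47). Of the deacetylases only Sirt2 could be tested, and it had no LPS call in WT (-0.26) or Adap-/- (0.31).

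The nuclear receptor coregulators showed both directions. The corepressor Ncor1, with 1 of its 2 peaks overlapping Ttc19, had no call. The coactivators Ncoa5, Ncoa1 and Ncoa7 rose in both genotypes, Ncoa5 by 0.98 (SE 0.12, adjusted p = 3.81e-06) and 1.02 (SE 0.12, adjusted p = 2.35e-06), Ncoa1 by 0.79 and 0.89 and Ncoa7 by 0.77 and 0.90. Ncoa3 rose in WT (0.46). Ncoa2 fell, at -1.28 (SE 0.25, adjusted p = 2.92e-04) in WT and -0.61 in Adap-/-.

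Nucleosome remodelers also split. Chd1, which reads H3K4 methylation at active genes, rose by 1.09 (SE 0.14, adjusted p = 4.14e-06) in WT and 0.77 (SE 0.13, adjusted p = 1.39e-04) in Adap-/-, and Ep400, the TIP60 complex ATPase, by 1.15 (SE 0.14, adjusted p = 2.85e-06) and 0.77 (SE 0.13, adjusted p = 1.28e-04). Chd2 rose by 0.67 and 0.48, and Arid2 by 0.68 in WT. The BAF subunit Arid1b fell from 99.5 and 91.3 CPM to 53.8 and 56.4 in WT and from 125 and 116 to 63.5 and 66.7 in Adap-/-. That is a fall without overlap, of -0.79 (SE 0.12, adjusted p = 2.46e-05) and -0.89 (SE 0.11, adjusted p = 4.99e-06), while its paralogue Arid1a had no LPS call. Smarcc2, another BAF subunit, fell, at -0.63 and -0.48. Smarcal1, an annealing helicase, fell, at -0.81 and -0.66, and Chd6 at -0.64 and -0.62. The WT call of Smarcal1 was lost without WT LPS 2 (-0.71) and WT mock 1 (-0.68), and its Adap-/- call without Adap-/- LPS 1 (-0.46), Adap-/- mock 1 (-0.69) and Adap-/- mock 2 (-0.65) and by DESeq2 (-0.65). For Chd6 the WT call was lost without WT LPS 2 (-0.49) and WT mock 1 (-0.44) and by DESeq2 (-0.62), and the Adap-/- call without Adap-/- LPS 1 (-0.54) and Adap-/- mock 2 (-0.45) and by DESeq2 (-0.61).

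Of the remaining ARID proteins, Arid5a stood at 82.6 and 78.1 CPM in WT mock, 822 and 809 in WT LPS, 59.8 and 66.0 in Adap-/- mock and 545 and 477 in Adap-/- LPS. All 4 groups were separate, and LPS raised Arid5a by 3.34 (SE 0.11, adjusted p = 2.44e-13) in WT and 3.02 (SE 0.11, adjusted p = 1.04e-12) in Adap-/-. Arid5b, which recruits the demethylase Phf2, rose by 0.81 and 0.57, and Arid3a fell, at -0.78 and -0.42. The Polycomb partners Asxl1 and Asxl2 had no call in any comparison of input or ratio, and 25 of the 86 regulators had no input call in any (29.1%, beside 30.3% of all genes).

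Several other LPS calls given above were lost when a replicate was left out. In WT these were Kat5 without WT mock 1 (0.37), Kdm2a without WT LPS 1 (-0.29) and WT mock 1 (-0.25), and Kdm7a without WT LPS 2 (0.54) and WT mock 2 (0.55). Further lost calls there were Kmt2c without Adap-/- LPS 1 (0.49), Adap-/- LPS 2 (0.49), Adap-/- mock 1 (0.46), Adap-/- mock 2 (0.46), WT LPS 1 (0.35) and WT mock 2 (0.27), Ncoa3 without WT mock 2 (0.32), and Ncoa7 without WT LPS 1 (0.54) and WT mock 2 (0.63). Further lost calls there were Nsd1 without WT LPS 1 (-0.32), Phf12 without WT LPS 1 (-0.37), WT LPS 2 (-0.40) and WT mock 1 (-0.36), and Setd1b without WT LPS 2 (0.47) and WT mock 1 (0.46). In Adap-/- they were Arid3a without Adap-/- LPS 1 (-0.41), Adap-/- LPS 2 (-0.42), Adap-/- mock 1 (-0.43) and Adap-/- mock 2 (-0.43), Chd2 without Adap-/- mock 1 (0.37), and Kat5 without Adap-/- LPS 2 (0.28) and Adap-/- mock 1 (0.20). Further lost calls there were Kdm5c without Adap-/- LPS 2 (0.25) and Adap-/- mock 1 (0.33), Ncoa2 without Adap-/- LPS 1 (-0.32), Adap-/- mock 1 (-0.66) and Adap-/- mock 2 (-0.57), and Phf13 without Adap-/- LPS 1 (0.38) and Adap-/- mock 2 (0.42). Further lost calls there were Phf20 without Adap-/- LPS 1 (-0.51) and Adap-/- mock 1 (-0.53), and Phf21a without Adap-/- LPS 1 (-0.51), Adap-/- LPS 2 (-0.48) and Adap-/- mock 2 (-0.40). DESeq2 did not call Kdm2a (-0.35), Kmt2c (0.51), Phf12 (-0.36) and Setd1b (0.69) in WT or Arid3a (-0.41), Kat5 (0.38), Kdm5c (0.43), Ncoa2 (-0.59), Phf13 (0.54), Phf20 (-0.57) and Phf21a (-0.48) in Adap-/-. With upper-quartile scaling the calls of Kat5 (0.20), Kdm5c (0.31), Kdm7a (0.44), Kmt2c (0.20), Ncoa3 (0.17), Ncoa7 (0.48) and Setd1b (0.38) in WT and Chd2 (0.20), Kat5 (0.09), Kdm5c (0.14) and Phf13 (0.26) in Adap-/- were lost. Phf12 in WT was also lost with RLE scaling and the block by replicate number, and Kmt2c in WT with the fit of the 4 compared libraries alone, with peaks of a single gene only and with a stricter filter on low counts.

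**Figure D3:**
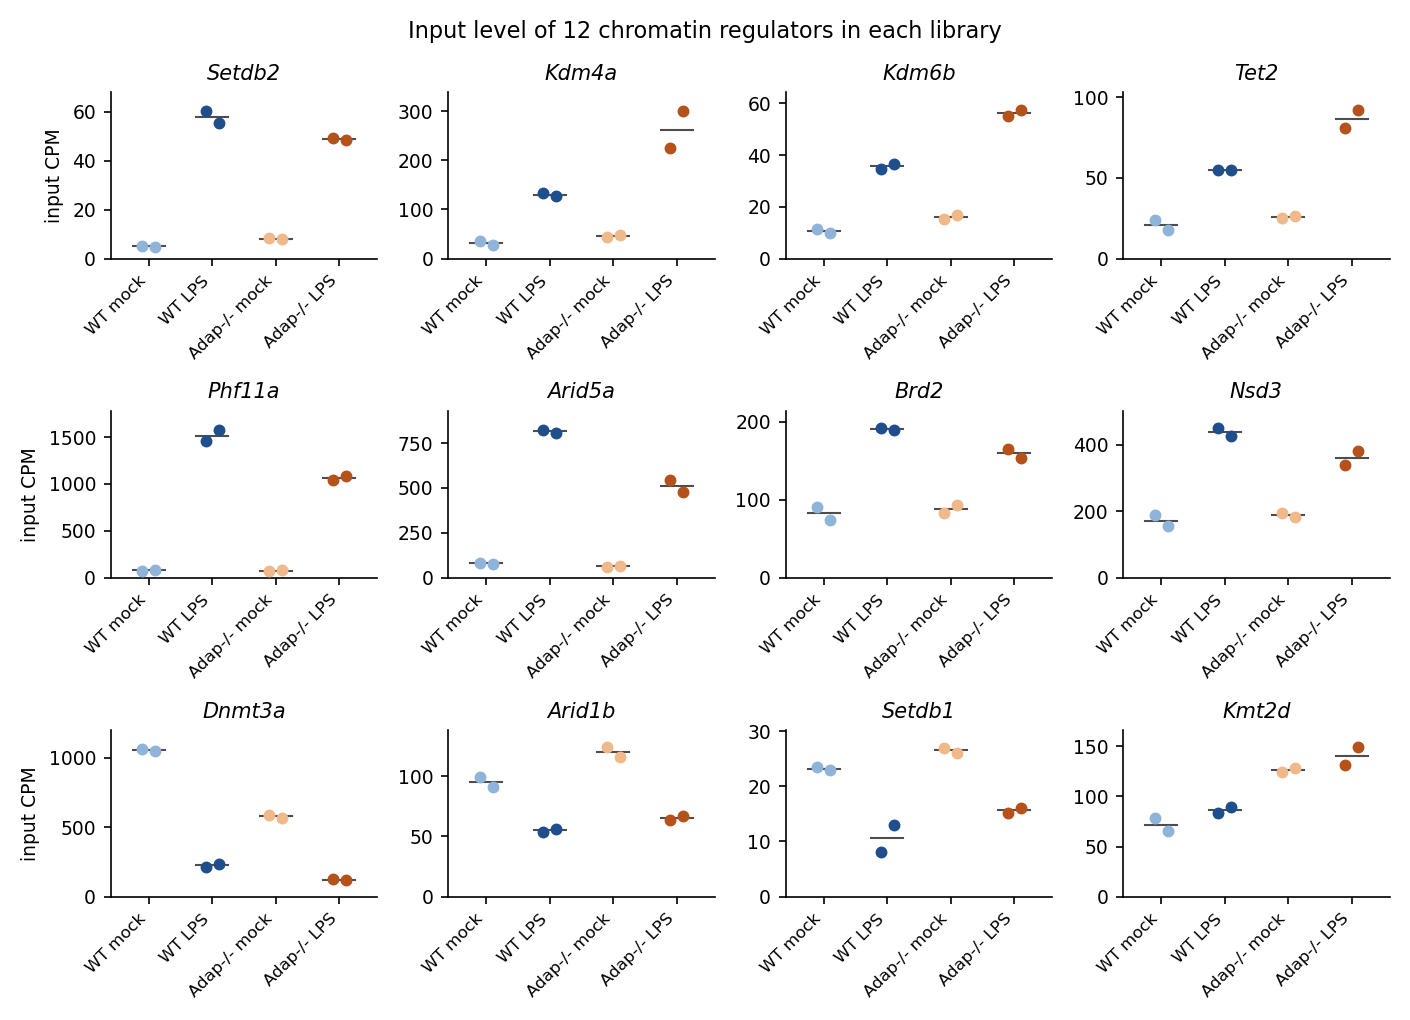
Input levels of 12 regulators in every library. The y axis of each panel gives normalized CPM, each point is a library of the group on the x axis, and the mock and LPS libraries of each genotype separate in every panel.

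Promoter sequence was read for the 20 regulators that rose in both genotypes, because several belong to known interferon or NF-κB responses. For 14 of them a promoter was held (GRCm38.p6 RefSeq, 250 bases before to 50 after the start site), and both strands were searched. A match describes the sequence and shows no binding. An interferon-stimulated response element pattern, 2 GAAA repeats with 2 bases between them, was found in Kat5, Ncoa7 and Phf11a, and in 3.44% of all 32851 promoters. The STAT pattern TTCNNNGAA was found in Arid5b and Brd2 (8.30% of all), and the AP-1 pattern TGANTCA in Kdm4a and Kdm5c (7.81%). None held an NF-κB site (8.46% of all) or TGACGTCA (1.79%). Of the 14 regulators that fell in both genotypes, 10 had a promoter, and only Smarcc2 held a match, to NF-κB. The Ncoa7 match lies after the start site, from base 7, and the other matches printed below lie before it. In the windows below capitals mark the match, and the strand is that of the gene.
Kat5 (chr19:5610112-5610141, minus strand): ttctcaagtgTTTCCCTTTCaaacagcttc
Ncoa7 (chr10:30655841-30655870, minus strand): ctccttgaggGAAACAGAAActcaatcttg
Phf11a (chr14:59297532-59297561, minus strand): cacatttagaGAAAAAGAAActagaaccta
Arid5b (chr10:68278879-68278908, minus strand): aaattgagtcTTCGAGGAAatattaggata
Brd2 (chr17:34120026-34120055, minus strand): attactttggTTCGGGGAAgacgaggttag
Kdm4a (chr4:118180215-118180244, minus strand): ctatggagatcTGAGTCAgcctctgatagg
Kdm5c (chrX:152233145-152233174, plus strand): aggtttttttcTGACTCAaagtaaacggaa

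Cell composition was read from marker genes, as far as they had peaks. A marker without a peak has no value here at any level of expression, so its lack does not show that the cells were absent. Of 8 macrophage markers 7 had peaks (Itgam had none), and they summed to 9480.4 and 10027 CPM in WT mock, 10394 and 9875 in WT LPS, 8721 and 9069 in Adap-/- mock and 9457 and 10606 in Adap-/- LPS. The sum hides changes of its genes, since in WT cells LPS raised Fcgr1 (3.20), Cd14 (2.08) and Mertk (1.60) and lowered Lyz2 (-0.68), and in Adap-/- cells it did the same and raised Adgre1 (0.90). After LPS Cd14 was higher in Adap-/- (0.49), and Fcgr1 (-1.28) and Mertk (-0.32) were lower. No macrophage marker was called between genotypes in mock. No marker of B cells, T cells, eosinophils or mast cells had a peak, nor had any of 4 sex-linked genes. Of 6 neutrophil markers only Csf3r was present, at 123.04 and 137 CPM in WT mock and 306 and 369 in WT LPS. It had 163 and 164 in Adap-/- mock and 369 and 388 in Adap-/- LPS, and S100a8, S100a9 and Ly6g had no peak. Of 4 dendritic cell markers only Ccr7 was present, at 10.5 and 14.0 CPM in WT mock, 27.7 and 56.0 in WT LPS, 7.35 and 8.98 in Adap-/- mock and 32.7 and 46.3 in Adap-/- LPS, without Flt3, Zbtb46 and Xcr1. Csf3r rose with LPS by 1.37 (SE 0.11, adjusted p = 1.82e-08) in WT and Ccr7 by 1.76 (SE 0.30, adjusted p = 1.18e-04), as many regulators did, and their part in the result was not tested. Of 8 mesothelial and fibroblast markers only Pdgfra had peaks, at 27.4 and 43.1 CPM in WT mock, 35.1 and 67.2 in WT LPS, 45.9 and 30.6 in Adap-/- mock and 70.8 and 37.5 in Adap-/- LPS.

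The second comparison asks whether regulators differed between Adap-/- and WT PMs without LPS. In mock, 20 of 86 regulators were higher and 5 lower in Adap-/- by edgeR, where 8.71% and 8.65% of all 4742 genes were. None of these differences exceeded 1 log2 unit, which 1.67% and 0.928% of all genes did. The median log2 fold change of regulators was 0.29 against 0.01 for all genes, and 70 regulators lay above 0. Without LPS, 5 regulators were called after Adap-/- mock 2 was left out (6.39% of all genes), 12 after Adap-/- mock 1 (11.1%) and 7 after WT mock 2 (9.07%), and DESeq2 called 9 higher and 2 lower (6.18% and 5.57% of all genes). Genes with peaks in coding sequence alone had a median of 0.31 among regulators and 0.14 among other genes, those with at least 3 peaks 0.37 and 0.15, and those with stop codon peaks alone 0.16 and -0.05.

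Of 19 lysine methyltransferases, 7 were higher and 1 lower in Adap-/- mock (8.71% and 8.65% of all genes). Kmt2d, which places H3K4 methylation at enhancers, stood at 78.5 and 65.2 CPM in WT mock, 83.3 and 89.3 in WT LPS, 124 and 129 in Adap-/- mock and 132 and 149.8 in Adap-/- LPS. Adap-/- libraries lay above WT libraries in both conditions, and the log2 fold change in mock was 0.82 (SE 0.12, adjusted p = 3.98e-04), kept after any replicate was left out. Setd1b, another H3K4 methyltransferase, stood at 10.7 and 14.0 CPM in WT mock, 17.1 and 22.4 in WT LPS, 21.8 and 22.3 in Adap-/- mock and 22.8 and 27.7 in Adap-/- LPS. WT mock lay below Adap-/- mock, with 0.84 (SE 0.23, adjusted p = 0.0188), a call lost without Adap-/- mock 1 (0.85), Adap-/- mock 2 (0.82) and WT mock 1 (0.66). Kmt2a was higher by 0.66 (SE 0.19, adjusted p = 0.0224), lost without Adap-/- mock 2 (0.57), WT mock 1 (0.64) and WT mock 2 (0.69), and Setd5 by 0.58 (SE 0.14, adjusted p = 0.0109), lost without Adap-/- mock 2 (0.46) and WT mock 2 (0.40). Setd2 (0.48), Kmt2e (0.43) and Nsd1 (0.39) were higher as well. The Setd2 call was lost without Adap-/- mock 1 (0.45), Adap-/- mock 2 (0.50) and WT mock 2 (0.49), that of Kmt2e without Adap-/- mock 1 (0.46), Adap-/- mock 2 (0.40) and WT mock 2 (0.28), and that of Nsd1 without Adap-/- mock 1 (0.37), Adap-/- mock 2 (0.42), WT mock 1 (0.41) and WT mock 2 (0.38). Setd1a was lower, at -0.52 (SE 0.10, adjusted p = 0.00266), under the identifier with overlapped peaks only. Under its other identifier it had no call, with an opposite sign (0.30).

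The acetyltransferases Crebbp and Ep300 were higher, and so was the nuclear receptor coregulator Ncoa6. Crebbp, also named CBP, went from 57.3 and 49.6 CPM in WT mock to 75.9 and 86.9 in Adap-/- mock. The libraries were separate at 0.61 (SE 0.13, adjusted p = 0.00430), a call lost without Adap-/- mock 2 (0.51). Its paralogue Ep300 was higher by 0.46, lost without Adap-/- mock 2 (0.37) and WT mock 2 (0.30). Ncoa6 was higher by 0.62 (SE 0.14, adjusted p = 0.00549), lost without Adap-/- mock 2 (0.55) and WT mock 2 (0.42). Among the remodelers, with a median of 0.43, Ep400 was higher by 0.48, lost without Adap-/- mock 1 (0.56), Adap-/- mock 2 (0.41) and WT mock 2 (0.36). Arid1a was higher by 0.47, lost without Adap-/- mock 2 (0.42) and WT mock 2 (0.30), and Chd2 by 0.47, lost without Adap-/- mock 2 (0.37), WT mock 1 (0.49) and WT mock 2 (0.46). Arid1b was higher by 0.34, lost without Adap-/- LPS 2 (0.34), Adap-/- mock 1 (0.29), Adap-/- mock 2 (0.39) and WT mock 2 (0.28). Tet3, a 5-methylcytosine oxidase, was higher by 0.50, lost without Adap-/- mock 1 (0.56), Adap-/- mock 2 (0.44) and WT mock 2 (0.39).

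Dnmt3a was the largest difference in the other direction, at -0.87 (SE 0.09, adjusted p = 2.74e-05) and with WT and Adap-/- libraries far apart. Among demethylases, Kdm7a, whose peak overlaps an unnamed gene, was higher by 0.99 (SE 0.21, adjusted p = 0.00407), and Kdm4a by 0.53 (SE 0.17, adjusted p = 0.0454). The Kdm4a call was lost without Adap-/- mock 1 (0.60), Adap-/- mock 2 (0.46), WT LPS 1 (0.53), WT LPS 2 (0.53) and WT mock 2 (0.37). Phf21a, a reader of unmethylated H3K4, was higher by 0.61, lost without Adap-/- mock 1 (0.70), Adap-/- mock 2 (0.50) and WT mock 2 (0.46). Arid5b was higher by 0.59 (SE 0.10, adjusted p = 0.00131). Phf23 was lower, at -0.35, lost without Adap-/- mock 1 (-0.43), Adap-/- mock 2 (-0.27) and WT mock 2 (-0.31), and Jmjd8, overlapped by Stub1, at -0.43, lost without Adap-/- mock 1 (-0.44), Adap-/- mock 2 (-0.41) and WT mock 2 (-0.37). Arid5a was lower, at -0.35, a call lost without any of 7 replicates, Adap-/- LPS 1 (-0.35), Adap-/- mock 1 (-0.28), Adap-/- mock 2 (-0.42), WT LPS 1 (-0.35), WT LPS 2 (-0.35), WT mock 1 (-0.31) and WT mock 2 (-0.39). DESeq2 did not call Ep400 (0.49), Tet3 (0.51), Kdm4a (0.54), Phf21a (0.61), Phf23 (-0.35), Jmjd8 (-0.42) or Arid5a (-0.35), nor Arid1b (0.34), Chd2 (0.47), Kmt2e (0.43), Nsd1 (0.39) and Setd2 (0.48). The fit of the 4 mock input libraries alone did not call Ep400 (0.50), Arid5a (-0.34) or Arid1b (0.35), the block by replicate number did not call Arid1b (0.34), and Arid5a was also lost with RLE scaling (-0.35), upper-quartile scaling (-0.35) and the block by replicate number (-0.35).

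**Figure D4:**
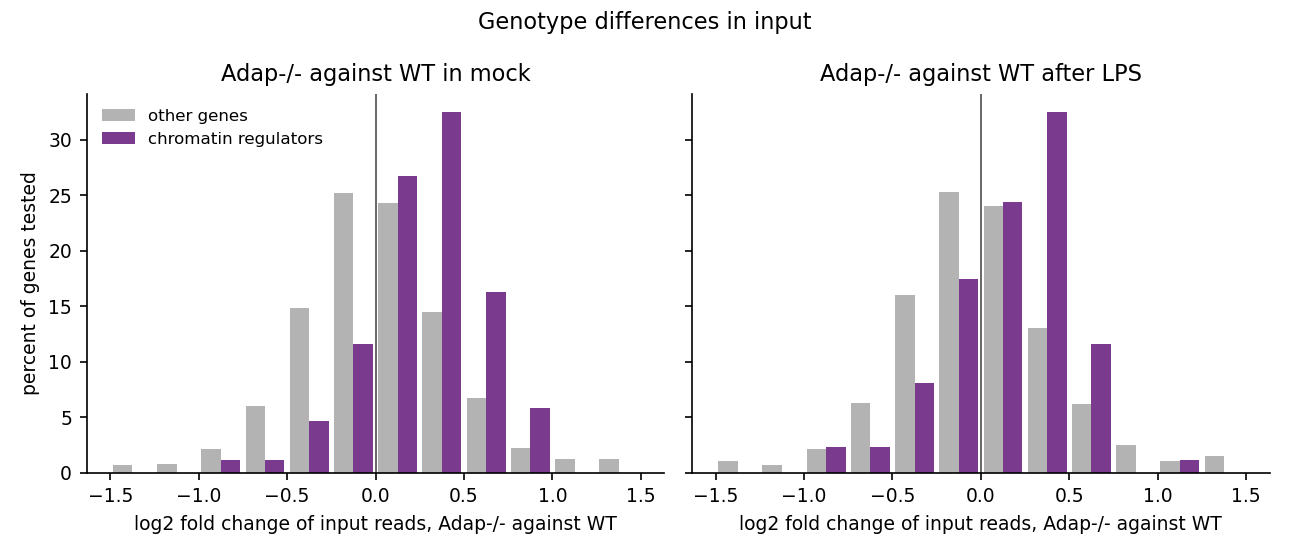
Differences between Adap-/- and WT in input. The x axis gives the log2 fold change in bins of 0.25, with all values beyond -1.5 and 1.5 in the end bins, the y axis the share of genes, and the regulators lie to the right of all genes in both conditions.

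After LPS, 10 of 86 regulators were higher and 3 lower in Adap-/- by edgeR than they were in WT, beside 6.03% and 9.78% of all genes. Only Kdm4a exceeded 1 log2 unit (1.35% of all genes were higher and 1.16% lower by that much). The median was 0.22 for regulators and -0.01 for all genes, and 60 regulators lay above 0. The count after LPS was 7 without Adap-/- LPS 2 (7.42% of all genes) and 8 without WT LPS 1 (8.07%), and DESeq2 called 5 higher and 3 lower (3.63% and 7.21% of all genes). Regulators with peaks in coding sequence alone had a median of 0.25 and other such genes 0.10, and with at least 3 peaks the medians were 0.34 and 0.04. With stop codon peaks alone they were -0.04 and -0.07. The mock and LPS comparisons of genotype share no library. They had 5 higher regulators in common, Arid5b, Kdm4a, Kmt2d, Kmt2e and Setd2, of 10 after LPS and 20 in mock (25.0% of the mock list, 32.7% over all genes, and 47.2% of the LPS list over all genes). Arid5a and Dnmt3a were lower in both, 66.7% and 40.0% of the lists (40.9% and 46.3% over all genes).

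Of the demethylases that LPS raised, Kdm4a and Kdm6b were higher in Adap-/- PMs, while Kdm5c (-0.05) and Kdm7a (0.43) were not called. Kdm4a reached 225 and 300.4 CPM in Adap-/- LPS against 133 and 127 in WT LPS, and Kdm6b 55.3 and 57.2 against 34.8 and 36.5. Neither pair overlapped, and the log2 fold changes were 1.01 (SE 0.14, adjusted p = 2.31e-04) for Kdm4a and 0.66 (SE 0.16, adjusted p = 0.00905) for Kdm6b. The Kdm6b call was lost without Adap-/- LPS 2 (0.63) and WT LPS 1 (0.62). Tet2 reached 80.7 and 91.9 CPM against 54.7 and 54.9, also separate, at 0.65 (SE 0.14, adjusted p = 0.00536), lost without Adap-/- LPS 2 (0.56). Kmt2d was higher by 0.70 (SE 0.12, adjusted p = 0.00123), kept after any replicate was left out. Kmt2e, a reader of H3K4 methylation, was higher by 0.59 (SE 0.13, adjusted p = 0.00682), lost without WT LPS 2 (0.50), and Setd2, the H3K36 methyltransferase, by 0.43, lost without Adap-/- LPS 2 (0.34), WT LPS 1 (0.44) and WT LPS 2 (0.42).

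Sirt2, a cytosolic deacetylase, stood at 30.7 and 29.4 CPM in WT mock, 23.9 and 26.4 in WT LPS, 26.2 and 34.5 in Adap-/- mock and 40.6 and 34.6 in Adap-/- LPS. After LPS the genotypes did not overlap, at 0.59 (SE 0.19, adjusted p = 0.0419), yet the call was lost without Adap-/- LPS 1 (0.46), Adap-/- LPS 2 (0.69), WT LPS 1 (0.52) and WT LPS 2 (0.66). Kdm2a, which removes H3K36 methylation, was higher by 0.48, lost without Adap-/- LPS 1 (0.33), WT LPS 1 (0.39) and WT LPS 2 (0.56). Kat14 was higher by 0.47, lost without Adap-/- LPS 1 (0.44), Adap-/- LPS 2 (0.50) and WT LPS 2 (0.35), and Arid5b by 0.34, lost without Adap-/- LPS 1 (0.31), Adap-/- LPS 2 (0.37), WT LPS 1 (0.33) and WT LPS 2 (0.36). DESeq2 did not call Sirt2 (0.58), Kdm2a (0.46), Kat14 (0.46), Setd2 (0.43) or Arid5b (0.33), and the block by replicate number did not call Sirt2 (0.59), Kat14 (0.47) or Setd2 (0.43).

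Among the regulators lower in Adap-/- after LPS, Dnmt3a had 125 and 117 CPM against 212 and 238 in WT LPS, and Arid5a 545 and 477 against 822 and 809. The genotypes were separate for both, with -0.89 (SE 0.10, adjusted p = 5.49e-05) for Dnmt3a and -0.67 (SE 0.10, adjusted p = 2.84e-04) for Arid5a. Phf11a was lower, at -0.50 (SE 0.10, adjusted p = 0.00224), with the uncertainty of its copies. All 3 calls were kept after any replicate was left out.

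Of 7 proliferation markers Mki67 and Pcna had peaks, while Top2a, Ccnb1, Cdk1, Mcm2 and Mcm5 had none. Together they summed to 30.7 and 31.5 CPM in WT mock, 85.4 and 65.1 in WT LPS, 46.5 and 54.1 in Adap-/- mock and 172 and 258 in Adap-/- LPS. Mki67 was higher in Adap-/- by 1.16 (SE 0.23, adjusted p = 0.00266) in mock and 1.66 (SE 0.18, adjusted p = 2.86e-05) after LPS, and LPS raised it by 1.78 in WT and 2.28 in Adap-/-. Kdm4a was called higher in the same 4 comparisons, and Tet2 in all but mock, where its genotype difference was no call (0.31). Pcna had no call, at -0.63 in mock and -0.50 after LPS for genotype and -0.26 and -0.13 for LPS. The part of dividing cells in the result was not tested.

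Whether the LPS response itself differed between genotypes was tested as an interaction. No regulator passed at an adjusted p below 0.05 in edgeR or DESeq2, where 0.358% of all genes were higher and 1.29% lower in edgeR. At an unadjusted p below 0.05 there were 4 higher and 5 lower (4.03% and 8.67% of all genes). The values ran from -1.20 to 0.67, with a median of -0.04 against -0.02 for all genes. The lowest unadjusted p among them belonged to Setdb2, with -0.95 (SE 0.30, adjusted p = 0.144). Phf11a (-0.44), Nsd3 (-0.42), Arid2 (-0.63) and Arid5a (-0.32) were the others below 0. Kat14 (0.57), Sirt2 (0.57), Kdm4a (0.48) and Setd1a (0.37) lay above, Setd1a under the identifier whose peaks all overlap other genes. So the genotype differences of Kdm4a, Dnmt3a and Arid5a after LPS are not shown to arise in the response to LPS.

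The ratio of IP to input reads was compared as a measure of m6A. Regulator peaks lay in coding sequence more often than peaks at large, 59.9% of 217 against 31.7% of all 7069, and less often at stop codons (27.2% against 33.9%), in 3'UTRs (6.91% against 16.03%) or at start codons (5.53% against 13.6%). Only Brd2 had its peak in a 5'UTR (0.461% against 2.29%). The median log2 ratio of regulator peaks was -0.05 and 0.02 in WT mock, 0.24 and 0.28 in WT LPS, 0.13 and 0.06 in Adap-/- mock and 0.28 and 0.28 in Adap-/- LPS, where all peaks had 0.01 and -0.04, 0.06 and 0.07, 0.01 and 0.04, and 0.02 and 0.01. In all 8 pairs of libraries, 44 regulator peaks lay above 0 (20.3% against 18.5% of all) and 18 below (8.29% against 16.6%). Of the 44, 5 lay above 1 in all 8 (2.30% against 1.73% of all). In the 6 pairs without WT mock IP 1 and Adap-/- mock IP 2, 70 lay above 0 (32.3% against 26.3%), 28 below (12.9% against 25.0%) and 9 above 1 (4.15% against 3.53%). The highest mean ratios were those of peaks in Kmt2e (2.62, coding sequence), Chd2 (2.09, 3'UTR) and Phf23 (1.78, start codon). Kat6a showed the spread within a transcript, from -0.44 at its lowest coding peak to 1.43 at the stop codon. Jmjd8, with a single peak, was low at -2.05.

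A peak was called when its ratio changed by more than 1 log2 unit with an unadjusted p below 0.05. With LPS in WT, 14 regulator peaks were higher and 3 lower in edgeR, beside 2.69% and 5.13% of all 7058 peaks tested. In Adap-/- PMs 8 were higher and 2 lower (2.44% and 4.56%). None passed at an adjusted p below 0.05 in edgeR in either genotype (0% of all peaks), and 24 and 21 had an unadjusted p below 0.05 (10.8% and 11.5%). DESeq2 found 2 at an adjusted p below 0.05 in WT, both in Phf11a, beside 2.86% of all peaks, and none in Adap-/-. The median change of regulator peaks was 0.22 in WT and 0.18 in Adap-/-, against 0.10 and 0.05 for all peaks. Coding peaks of other genes also had higher ratios with LPS. Their median log2 ratios were -0.09 and -0.12 in WT mock and 0.08 and 0.11 in WT LPS. In Adap-/- they were -0.10 and -0.02 in mock and 0.07 and 0.06 after LPS. Regulator coding peaks had -0.11 and 0.01, 0.27 and 0.32, 0.03 and -0.01, and 0.32 and 0.34 in the same order. The excess of higher over lower peaks held in WT with TMM scaling within each kind of library (9 higher, 4 lower, beside 1.87% and 6.01% of all peaks). It turned in Adap-/-, with 3 higher and 5 lower (1.40% and 5.89%), and 3 and 6 with RLE scaling (1.40% and 5.89%), as the median of all peaks moved by -0.11 in WT and -0.14 in Adap-/-. Relative to all peaks the median stayed at 0.12 in both.

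Without WT mock IP 1 and Adap-/- mock IP 2, LPS calls numbered 14 higher and 2 lower in WT (3.53% and 3.47% of 7059 peaks) and 6 and 2 in Adap-/- (3.78% and 5.2%), and 2 and 1 of them passed at an adjusted p below 0.05 (2.27% and 3.81% of all peaks). At an unadjusted p below 0.05 there were 24 and 22 (12.3% and 17.5%). The WT count was 17 with all libraries, 6 without WT mock 1 (3.67% of all peaks), 31 without WT mock 2 (14.8%), and 11 without WT LPS 1 (4.56%) or WT LPS 2 (4.75%). The Adap-/- count was 10 with all libraries, 2 without Adap-/- mock 2 (4.66%), 16 without Adap-/- mock 1 (11.0%) and 6 without Adap-/- LPS 2 (6.57%). Called peaks were shallow, with a median of 43.9 input reads per library in WT and 40.2 in Adap-/-, and a lowest mean of 13.8 and 12.3. Peak positions are on GRCm39, per the submitters' notes.

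The largest called LPS rise in WT was that of a Kmt2d coding peak (chr15:98737524-98737723), at log2 ratios of -0.94 and -1.15 in WT mock, 0.70 and 0.31 in WT LPS, -0.62 and 0.29 in Adap-/- mock and 0.60 and 0.87 in Adap-/- LPS. WT mock and WT LPS were separate, with a change of 1.70 (SE 0.43, adjusted p = 0.215) in edgeR, and 0.93 in Adap-/- was no call. Without WT mock IP 1 and Adap-/- mock IP 2 the WT change was 1.63. The next called were coding peaks of Crebbp (chr16:3903267-3903316) at 1.60 (SE 0.68, adjusted p = 0.424) and of Ash1l, an H3K36 methyltransferase, at 1.52 (SE 0.52, adjusted p = 0.307), and the stop codon peak of Phf21a (chr2:92190940-92191089) at 1.49 (SE 0.47, adjusted p = 0.267). The Crebbp call was lost without Adap-/- mock 1 (1.56), Adap-/- mock 2 (1.56), WT LPS 2 (1.10) and WT mock 1 (1.05), and in the fit without WT mock IP 1 and Adap-/- mock IP 2 (1.33), the fit of the 8 compared libraries alone (1.56) and the block pairing IP with input (1.60). The Ash1l call was lost without WT LPS 1 (1.34) and WT mock 2 (0.97) but kept without the 2 IP libraries (1.90). The Phf21a call was lost without WT LPS 2 (1.25) and WT mock 1 (1.32). Setd1b had a coding peak that fell, at -1.17 (SE 0.45, adjusted p = 0.376), a call lost without WT LPS 2 (-0.89) and WT mock 1 (-0.83), and in the fit without WT mock IP 1 and Adap-/- mock IP 2 (-0.86) and the same block with WT mock crossed (-1.12). A Setd1a coding peak shared with other genes rose by 1.52 (SE 0.67, adjusted p = 0.447) from at most 16 input reads, and that call was lost in nearly every other fit. It was lost without Adap-/- mock 1 (1.47), Adap-/- mock 2 (1.48), WT LPS 1 (1.58), WT LPS 2 (1.37), WT mock 1 (1.18) and WT mock 2 (1.85), and in DESeq2 (1.43), the fit without WT mock IP 1 and Adap-/- mock IP 2 (1.35), RLE scaling (1.42), TMM scaling within each kind of library (1.41), the fit of the 8 compared libraries alone (1.48), the block pairing IP with input (1.48), the same block with WT mock crossed (1.48) and the block by replicate number (1.53).

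Phf11a held the largest falls in both genotypes. Its stop codon peak (chr14:59558713-59559057) had log2 ratios of 1.48 and -1.39 in WT mock, -2.39 and -2.71 in WT LPS, -1.08 and 0.88 in Adap-/- mock and -2.63 and -2.42 in Adap-/- LPS. The mock replicates of each genotype were far apart, the library that stands apart being the higher in each. The change was -3.14 (SE 1.01, adjusted p = 0.282) in WT and -2.75 (SE 1.00, adjusted p = 0.331) in Adap-/-, and -4.84 (SE 1.47, adjusted p = 0.253) and -4.43 (SE 1.47, adjusted p = 0.301) at its coding peak. Without WT mock IP 1 and Adap-/- mock IP 2 the falls shrank to -1.27 in WT and -1.47 in Adap-/- at the stop codon and to -2.44 and -2.66 in coding sequence. In WT the stop codon call was lost without WT LPS 2 (-3.00) and WT mock 1 (-1.11) and the coding call without WT LPS 2 (-3.93) and WT mock 1 (-2.19). In Adap-/- they were lost without Adap-/- LPS 1 (-2.62), Adap-/- LPS 2 (-2.85) and Adap-/- mock 2 (-1.47), and without Adap-/- LPS 1 (-3.89) and Adap-/- mock 2 (-2.65). Copies of Phf11a make the reads uncertain as well.

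In Adap-/- PMs the largest called LPS rise was a coding peak of Nsd1, at 2.73 (SE 0.85, adjusted p = 0.290), from 1 and 3 input reads after LPS, lost without Adap-/- LPS 1 (2.14) and Adap-/- mock 2 (1.96). A Crebbp coding peak (chr16:3997482-3997781) had log2 ratios of 0.29 and 0.16 in WT mock, 0.84 and 1.00 in WT LPS, 0.23 and 0.34 in Adap-/- mock and 2.04 and 1.60 in Adap-/- LPS. Mock and LPS were separate in both genotypes, and Adap-/- LPS was above the rest, at 1.57 (SE 0.38, adjusted p = 0.235) in Adap-/- and 0.75 in WT, which was no call. It was kept after any replicate was left out. Another Crebbp coding peak (chr16:3902567-3902816) rose by 1.48 (SE 0.56, adjusted p = 0.348), lost without Adap-/- LPS 1 (1.502), Adap-/- LPS 2 (1.48) and Adap-/- mock 2 (1.20). Kmt2c, an H3K4 methyltransferase, had a coding peak that rose by 1.09 (SE 0.43, adjusted p = 0.372), lost without Adap-/- LPS 1 (1.22), Adap-/- LPS 2 (0.98), Adap-/- mock 1 (1.16) and Adap-/- mock 2 (0.92), and in DESeq2 (0.95), the fit without WT mock IP 1 and Adap-/- mock IP 2 (0.98), RLE scaling (0.95) and TMM scaling within each kind of library (0.95). A Tet3 coding peak rose by 1.24 (SE 0.55, adjusted p = 0.419), lost without Adap-/- LPS 2 (0.78), Adap-/- mock 2 (0.63), WT mock 1 (1.26) and WT mock 2 (1.20), and in DESeq2 (1.10), the fit without WT mock IP 1 and Adap-/- mock IP 2 (0.93), RLE scaling (1.10), TMM scaling within each kind of library (1.10), the fit of the 8 compared libraries alone (1.25), the block pairing IP with input (1.21), the same block with WT mock crossed (1.21) and the block by replicate number (1.19).

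Between genotypes, 3 regulator peaks were higher and 2 lower in Adap-/- mock (0.68% and 0.595% of all peaks), and 2 were higher and 5 lower after LPS (1.32% and 2.82%). None passed at an adjusted p below 0.05 in edgeR or DESeq2 (0% of all peaks in mock and 0.0142% after LPS in edgeR). At an unadjusted p below 0.05 there were 6 in mock and 11 after LPS (2.1% and 7.13%). The medians of regulator peaks were 0.02 in mock and 0.03 after LPS, against -0.01 and 0.01 for all peaks. Without WT mock IP 1 and Adap-/- mock IP 2 the calls were 5 higher and 1 lower in mock (1.502% and 0.892% of all peaks) and 3 and 8 after LPS (1.997% and 3.33%). At an unadjusted p below 0.05 there were then 8 and 24 (3.84% and 14.1%), and none at an adjusted p below 0.05 (0% and 0.637%). The mock count was 14 without Adap-/- mock 1 (5.17% of all peaks), 3 without Adap-/- mock 2 (1.66%) and 12 without WT mock 2 (5.76%). The LPS count was 12 without Adap-/- LPS 1 (5.98%), 3 without WT LPS 1 (2.14%), 4 without WT mock 1 (3.87%) and 4 without WT mock 2 (3.895%). With a block pairing IP with input it was 3 (4.22%).

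In mock, the peaks higher in Adap-/- lay at the stop codon of Phf21a, with 1.39 (SE 0.46, adjusted p = 1), and in coding sequence of Brd1, the scaffold of an acetyltransferase complex, with 1.36 (SE 0.47, adjusted p = 1), and of Kmt2d, with 1.00 (SE 0.42, adjusted p = 1). The Phf21a call was lost without WT mock 1 (1.20), and the Brd1 call without Adap-/- mock 2 (1.01) and WT mock 1 (0.90), and in the fit without WT mock IP 1 and Adap-/- mock IP 2 (0.67). The Kmt2d call was lost without Adap-/- mock 2 (0.53), WT mock 1 (1.12) and WT mock 2 (0.91), and in DESeq2 (1.02), the fit without WT mock IP 1 and Adap-/- mock IP 2 (0.65), the fit of the 8 compared libraries alone (0.96), the block pairing IP with input (0.97), the same block with WT mock crossed (0.97) and the block by replicate number (0.99). The peaks that were lower were in coding sequence of Setd1b, at -1.57 (SE 0.44, adjusted p = 1), and at the start codon of Sirt2, at -1.48 (SE 0.53, adjusted p = 1). Setd1b lost its call without Adap-/- mock 1 (-1.21), and Sirt2 without Adap-/- mock 2 (-0.72) and WT mock 1 (-1.23), and in the fit without WT mock IP 1 and Adap-/- mock IP 2 (-0.68) and the fit of the 8 compared libraries alone (-1.51).

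After LPS, the Kmt2c coding peak (chr5:25520461-25520585) had log2 ratios of -0.36 and -0.16 in WT mock, -0.39 and -0.06 in WT LPS, 0.15 and -0.09 in Adap-/- mock and 0.95 and 1.16 in Adap-/- LPS. Adap-/- LPS lay above every other group, and the difference was 1.33 (SE 0.43, adjusted p = 0.557), lost without Adap-/- LPS 2 (1.22). A coding peak of Kdm6a was higher by 1.12 (SE 0.46, adjusted p = 0.675), lost without Adap-/- LPS 2 (0.64), WT LPS 1 (0.94) and WT LPS 2 (1.33), and in DESeq2 (1.09) and the block pairing IP with input (1.09). Lower peaks lay in Ehmt1, at -1.06 (SE 0.38, adjusted p = 0.622), and Smarcc2, at -1.14 (SE 0.51, adjusted p = 0.697). Others lay in Kat14, at -1.20 (SE 0.51, adjusted p = 0.677), Phf20l1, at -1.41 (SE 0.64, adjusted p = 0.697), and the shared Setd1a peak, at -1.55 (SE 0.66, adjusted p = 0.677). The Ehmt1 call was lost without Adap-/- LPS 1 (-0.97), WT LPS 1 (-1.14) and WT LPS 2 (-0.97), and in the fit of the 8 compared libraries alone (-1.05), and that of Smarcc2 without Adap-/- LPS 1 (-1.09), Adap-/- LPS 2 (-1.18), WT LPS 1 (-0.25), WT mock 1 (-1.13) and WT mock 2 (-1.13), and in the block pairing IP with input (-1.02), the same block with WT mock crossed (-1.02) and the block by replicate number (-1.11). For Kat14 it was lost without Adap-/- LPS 1 (-0.53), Adap-/- mock 1 (-1.18), Adap-/- mock 2 (-1.18), WT LPS 2 (-0.78), WT mock 1 (-1.20) and WT mock 2 (-1.20), and in the fit of the 8 compared libraries alone (-1.18), the block pairing IP with input (-1.19), the same block with WT mock crossed (-1.19) and the block by replicate number (-1.20). Phf20l1 lost its call without Adap-/- LPS 1 (-1.37), Adap-/- LPS 2 (-1.47), WT LPS 1 (-1.62) and WT LPS 2 (-1.23), and in the block pairing IP with input (-1.43), the same block with WT mock crossed (-1.43) and the block by replicate number (-1.43). Setd1a lost its call without Adap-/- LPS 2 (-1.06), WT LPS 1 (-1.61), WT LPS 2 (-1.40), WT mock 1 (-1.55) and WT mock 2 (-1.55), and in DESeq2 (-1.59), the fit of the 8 compared libraries alone (-1.54), the block pairing IP with input (-1.53), the same block with WT mock crossed (-1.53) and the block by replicate number (-1.57).

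The LPS effect on the ratio differed between genotypes for 1 peak upward and 4 downward (1.02% and 1.74% of all peaks), and for none at an adjusted p below 0.05 in edgeR or DESeq2 (0%), with 8 at an unadjusted p below 0.05 (3.23%). The median was -0.02, and 0.00 for all peaks. Without WT mock IP 1 and Adap-/- mock IP 2 the count of 5 became 8, with 2 upward and 6 downward (2.42% and 2.72% of all peaks), and 11 had an unadjusted p below 0.05 (7.20%) and none an adjusted one (0%). The count was 11 without WT mock 1 (3.34%), 10 without WT mock 2 (6.40%), 11 without Adap-/- mock 1 (3.98%), 3 without Adap-/- mock 2 (3.54%) and 3 without Adap-/- LPS 2 (4.16%). The Setd1b coding peak (chr5:123286505-123286629) had log2 ratios of 1.54 and 1.00 in WT mock, 0.49 and 0.02 in WT LPS, -0.39 and 0.15 in Adap-/- mock and 0.83 and 0.60 in Adap-/- LPS. It fell with LPS in WT and did not in Adap-/-, where both values went up, and the difference was 2.07 (SE 0.62, adjusted p = 1), kept after any replicate was left out and without the 2 IP libraries (1.74). The Tet2 coding peak (chr3:133173165-133173514) had -0.05 and 0.52 in WT mock, 0.73 and 1.05 in WT LPS, 0.98 and 1.17 in Adap-/- mock and 0.86 and 0.51 in Adap-/- LPS. LPS ratios lay above mock in WT and below mock in Adap-/-, neither a call by itself, with a difference of -1.11 (SE 0.40, adjusted p = 1), lost without Adap-/- LPS 2 (-0.94), Adap-/- mock 2 (-1.02), WT LPS 2 (-0.96) and WT mock 1 (-0.78).

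Of the other 3 peaks, those of Phf21a and Brd1 had their lowest ratios in WT mock. Phf21a had -1.10 and -0.76 in WT mock, 0.20 and 0.76 in WT LPS, 0.43 and 0.28 in Adap-/- mock and 0.23 and 0.42 in Adap-/- LPS at its stop codon. WT mock alone lay apart, and the difference was -1.52 (SE 0.66, adjusted p = 1), lost without Adap-/- LPS 1 (-1.40), Adap-/- mock 1 (-1.48), Adap-/- mock 2 (-1.63), WT LPS 2 (-1.27), WT mock 1 (-1.33) and WT mock 2 (-1.72), and in the fit without WT mock IP 1 and Adap-/- mock IP 2 (-1.34) and the block by replicate number (-1.4999). Brd1 had -2.19 and -1.24 in WT mock, -0.02 and -0.78 in WT LPS, -0.74 and -0.11 in Adap-/- mock and -0.77 and -0.49 in Adap-/- LPS at its coding peak. Here too WT mock lay below the rest, with -1.65 (SE 0.66, adjusted p = 1), lost without Adap-/- LPS 1 (-1.498), Adap-/- LPS 2 (-1.78), Adap-/- mock 2 (-1.28), WT LPS 1 (-1.21) and WT mock 1 (-1.19), and in the fit without WT mock IP 1 and Adap-/- mock IP 2 (-0.93). The Ehmt1 coding peak (chr2:24774190-24774364) had -0.42 and -0.79 in WT mock, 0.55 and 0.71 in WT LPS, -0.49 and -0.46 in Adap-/- mock and -0.41 and -0.25 in Adap-/- LPS. Only WT LPS lay above 0, and the difference was -1.19 (SE 0.53, adjusted p = 1) and was -1.56 without the 2 IP libraries. The call was lost without Adap-/- LPS 1 (-1.12), Adap-/- LPS 2 (-1.28), Adap-/- mock 1 (-1.22), Adap-/- mock 2 (-1.18), WT LPS 1 (-1.27), WT LPS 2 (-1.10) and WT mock 2 (-1.03), and in DESeq2 (-1.26), the block pairing IP with input (-1.20), the same block with WT mock crossed (-1.20) and the block by replicate number (-1.20).

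**Figure D5:**
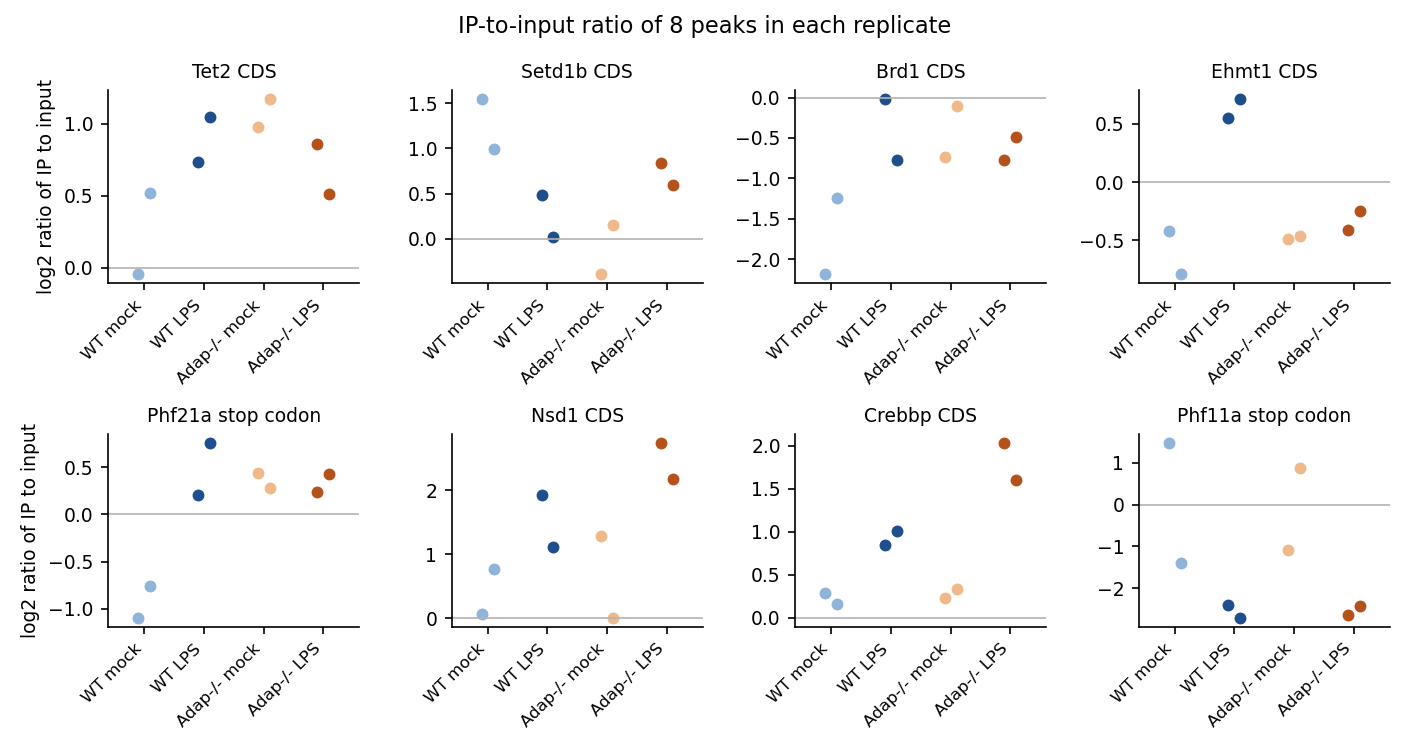
Log2 IP-to-input ratios of 8 regulator peaks in every replicate. The y axis of each panel gives the log2 ratio and the x axis the 4 groups, and the mock replicates of the Phf11a peak are far apart.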

How the data were processed

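The authors deposited 1 table with 8094 lines, holding for each merged m6A peak a read count in each of 16 libraries, not scaled by length or depth. The submitters' processing notes name Bowtie2 2.2.8, MACS2 2.1.2, DiffBind 2.8 and the GRCm39 genome without saying which step each served, and the paper names the Omicsmart platform. The plan assumed genes where the table holds peaks, so input counts were summed over all peaks of a gene identifier.

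Genes and peaks were tested with edgeR 4.0.16 (limma 3.58.1, R 4.3.3): TMM scaling, filterByExpr (count 10, total 15), quasi-likelihood F tests and Benjamini-Hochberg adjustment. The gene fit used 8 input libraries and left out 201 of 4943 genes, and the peak fit used all 16 and left out 11 of 7069 peaks. Biological coefficients of variation were 8.82% for genes and 30.6% for peaks. A ratio change is the contrast of IP over input between groups. Gene calls need an adjusted p below 0.05, while a peak was called when its ratio moved by more than 1 log2 unit, up or down, and its unadjusted p was below 0.05. Printed ratios are log2 of CPM with 1 added to IP and to input, and are not the fitted changes. DESeq2 1.42.0, Python 3.11.15, pandas 2.3.3, numpy 2.4.6 and matplotlib 3.10.9 were also used. The code was tested on simulated data.

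Regulators named singly are those with the largest called changes, at most 12 genes and 5 peaks each way per comparison, plus 33 regulators known for macrophage or chromatin roles. Some genes that meet this are not reported here by name, but are counted. The regulators and the lists (LPS genes, cell markers, other chromatin genes) were chosen with earlier results of these data known. Samples were read as paired only by number. Within a group, the difference between replicates correlated between IP and input at -0.105 in WT mock, 0.113 in WT LPS, 0.0388 in Adap-/- mock and 0.0858 in Adap-/- LPS, and between input of different groups at -0.0720 to 0.0932, so no pairing entered the tests reported.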

Additional observations from a re-analysis of the deposited data

Results flagged for a closer look

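These 5 peaks were singled out because the LPS effect on their IP-to-input ratio differed between genotypes by more than 1 log2 unit at an unadjusted p below 0.05. The log2 difference, Adap-/- minus WT, was 2.07 for Setd1b on chromosome 5. It was -1.65 for Brd1 on chromosome 15. Phf21a on chromosome 2 had -1.52, and Ehmt1 on the same chromosome had -1.19. Tet2 on chromosome 3 had -1.11. None passed after adjustment.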

How the results depend on the processing

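Input counts of called regulators, 42, 41, 13 and 25 for LPS in WT, LPS in Adap-/-, genotype after LPS and genotype in mock, became 18, 15, 1 and 0 when a change above 1 log2 unit and an unadjusted p were required. DESeq2 gave 8 for genotype after LPS and 11 in mock. Leaving out a replicate gave 38 to 43, 31 to 43, 7 to 18 and 5 to 24, and 0 in every case for the interaction. Among single genes, 590 of 615 settings kept the call and 25 lost it, and of 624 fits with a replicate left out 548 kept it. These are the genes chosen by rule, and for the other called regulators 304 of 340 settings and 277 of 344 such fits kept the call. None turned direction.

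Called peaks, 17, 10, 7, 5 and 5 with the interaction last, became 0 in all 5 comparisons at an adjusted p below 0.05. Without WT mock IP 1 and Adap-/- mock IP 2, an alternative chosen after seeing the data, genotype after LPS gave 11 and the interaction 8. Genotype in mock gave 3 when only its 8 libraries were fitted. Leaving out a replicate gave 6 to 31, 2 to 16, 3 to 12, 3 to 14 and 3 to 11, with the lone sample of a group assumed to vary like the other groups. Among single peaks 256 of 315 settings kept the call, and 160 of 256 fits with a replicate left out. The cause was not tested.

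A replicate block pairing IP with input gave 3 peaks for genotype after LPS and changed no other count by more than 1.5 times, and with WT mock numbers crossed the block gave 18, 11, 3, 5 and 4 peaks.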

Other observations

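Other chromatin genes were listed by hand from Polycomb, NuRD, Sin3, CoREST, COMPASS and remodeling complexes, 95 in all, of which 33 had peaks and 32 could be tested. In edgeR 11 rose and 4 fell with LPS in WT (30.2% and 28.9% of all genes) and 9 and 6 in Adap-/- (28.5% and 26% of all genes). In Adap-/-, 1 was higher and 3 lower after LPS (6.03% and 9.78%) and 4 and 0 in mock (8.71% and 8.65%). Daxx, an H3.3 chaperone, stood at 94.1 and 102 CPM in WT mock, 1287 and 1229 in WT LPS, 92.1 and 94.9 in Adap-/- mock and 975 and 986 in Adap-/- LPS. LPS libraries were separate from mock, at 3.68 (SE 0.10, adjusted p = 4.85e-14) in WT and 3.39 (SE 0.10, adjusted p = 1.75e-13) in Adap-/-, and Daxx was lower in Adap-/- after LPS at -0.36. Pcgf5, a Polycomb subunit, rose from 21.5 and 23.4 CPM to 244 and 203 in WT and from 22.05 and 18.9 to 147 and 137 in Adap-/-. Its groups were separate, with 3.32 (SE 0.14, adjusted p = 5.03e-12) and 2.797 (SE 0.14, adjusted p = 6.27e-11), and the genotypes differed after LPS by -0.65 (SE 0.12, adjusted p = 0.00140).

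Jarid2, a PRC2 cofactor, rose by 1.74 and 1.28, and Prdm1, a repressor of the PRDM family, by 1.73 and 1.77. Bicral (-1.14 and -2.60), the NuRD subunit Mbd3 (-0.71 and -0.84) and Ing2 (-0.75 and -0.54) fell in both genotypes. Uhrf2 was called lower in WT (-1.12) and not in Adap-/-. Trim28 (-0.71) and Bicra (-0.45) were called lower in Adap-/- and not in WT. The interaction test called none of the 32 genes (0.358% of all genes were higher and 1.29% lower), so these responses are not shown to differ between genotypes. In mock, Rif1 (1.16), Lcor (0.81), Bicra (0.74) and Med13l (0.60) were higher in Adap-/-. The median log2 fold change of this list was 0.08 for LPS in WT, -0.07 for LPS in Adap-/-, -0.04 for genotype after LPS and 0.16 for genotype in mock. These genes were chosen after their values were seen.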
